A study of Mus musculus with 6 samples.

Results

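The circadian clock genes described here are 10 transcripts of the cell-autonomous 24-hour oscillator, chosen by name: Arntl, Npas2, Clock, Cry1, Per2, Per3, Cry2, Nr1d1, Dbp and Tef. Of these, 9 were measured on an Affymetrix whole-transcript array in mouse heart, out of 19938 genes in all, each on 1 transcript cluster (the probes that read 1 transcript). Npas2 was matched to no transcript cluster by its symbol and is not analysed here. All 9 lay above the filter on dim genes, which left 14953 genes for testing.

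Hearts came from C57BL/6J mice at postnatal day 14. For 1 week, 3 of the mice had received PBS (phosphate-buffered saline) as vehicle and 3 ETX, an agent that is named in the labels by this abbreviation alone. No allele or transgene is given. The hearts are called biological replicates in the labels, numbered 3, 9 and 12 in PBS and 6, 7 and 10 in ETX, with 1 array per heart. The labels used here give no time of day for the collection of a heart, so its part in any difference was not tested.

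In the mammalian clock, the proteins of Arntl (also called Bmal1) and Clock bind DNA together at E-boxes and switch on the Per, Cry, Nr1d1, Dbp and Tef genes. PER and CRY proteins then repress that pair, and NR1D1 (REV-ERB-alpha) represses Arntl. Arntl and most of these targets thus peak at roughly opposite times of day. Dbp and Tef are transcription factors that bind a further element, the D-box, and pass the rhythm on to output genes. In the heart the clock is known to influence metabolism, contraction and electrical activity, and clocks of peripheral tissues mature during early postnatal life. The members were therefore divided into a morning arm, whose transcripts peak around the end of the night and dawn in mouse tissues (Arntl, Clock and Cry1 as measured), and an evening arm, which peaks from the afternoon to the early night (Per2, Per3, Cry2, Nr1d1, Dbp and Tef). Transcripts of opposite phase tend to differ in opposite directions between tissues collected at different times of day, so the arms were set against each other in each heart. Members of an arm do not all peak at the same hour, so the arms are not strictly opposite.

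The promoters of Per3, Cry1 and Tef are shown because they alone, of the members with a window, held a match to the E-box or the D-box. Each is the 250 bases before an annotated start site, from RefSeq on GRCm38.p6, printed 5′ to 3′ on the gene's strand, with matches to the E-box CACGTG or the D-box TTANGTAA in capitals.
Per3, chr4:151044666-151044915, reverse strand: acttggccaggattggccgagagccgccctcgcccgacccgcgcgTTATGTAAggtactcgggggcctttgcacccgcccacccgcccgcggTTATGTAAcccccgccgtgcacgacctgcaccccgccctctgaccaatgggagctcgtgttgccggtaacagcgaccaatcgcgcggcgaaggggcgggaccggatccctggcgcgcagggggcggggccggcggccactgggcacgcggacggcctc
Cry1, chr10:85185055-85185304, reverse strand: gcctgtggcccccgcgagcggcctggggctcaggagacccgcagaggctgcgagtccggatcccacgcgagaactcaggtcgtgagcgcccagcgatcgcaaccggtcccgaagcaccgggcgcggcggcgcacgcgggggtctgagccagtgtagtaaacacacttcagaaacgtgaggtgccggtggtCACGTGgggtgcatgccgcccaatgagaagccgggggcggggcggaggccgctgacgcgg
Tef, chr15:81802423-81802672, forward strand: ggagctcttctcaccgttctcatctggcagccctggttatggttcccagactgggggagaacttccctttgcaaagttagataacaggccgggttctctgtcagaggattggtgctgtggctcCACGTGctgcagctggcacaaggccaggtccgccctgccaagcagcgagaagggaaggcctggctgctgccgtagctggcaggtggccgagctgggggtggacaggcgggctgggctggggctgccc
Both strands were searched, and the motifs do not overlap each other in these windows. Per3 held 2 D-box matches, starting 205 and 158 bases before the start site. Cry1 held 1 E-box match 60 bases before the start site, and the Tef window shown held 1 at 127 bases. A second annotated Tef start site had an E-box match at 138 bases. Windows were found for 9 of the 10 members, Per2 being the one without, and 2 of these 9 genes held an E-box and 1 a D-box. Over 27025 genes with a window, 6.86% held an E-box and 2.44% a D-box in at least 1 window. A match is a run of letters and not a measured binding site, and these windows leave out more distant elements.

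No measured clock gene passed the test between ETX and PBS hearts. With limma and adjustment over all genes tested, 0 of the 9 measured members passed an adjusted p of 0.05 in either direction, with adjusted p between 0.251 and 0.961. Over all tested genes 3.56% passed, 533 of 14953, with 1.14% higher and 2.43% lower in ETX, so 0 of 9 is near that share. At an unadjusted p under 0.05 the count was also 0 of 9, against 21.9% of all tested genes. An unmoderated linear model called 0 of all tested genes, so its count of 0 members says nothing about the clock genes. The ETX and PBS values of every measured member overlapped, where 27.7% of tested genes did not overlap (11.6% higher, 16.1% lower in ETX). The median difference, ETX minus PBS on the log2 scale, was 0.06 for the members and -0.01 for all tested genes. A p that misses the threshold does not show equal levels: the 95% intervals of the members, which are not adjusted for the number of genes, reached up to 1.17-fold for Tef and 1.60-fold for Dbp.

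**Figure D1:**
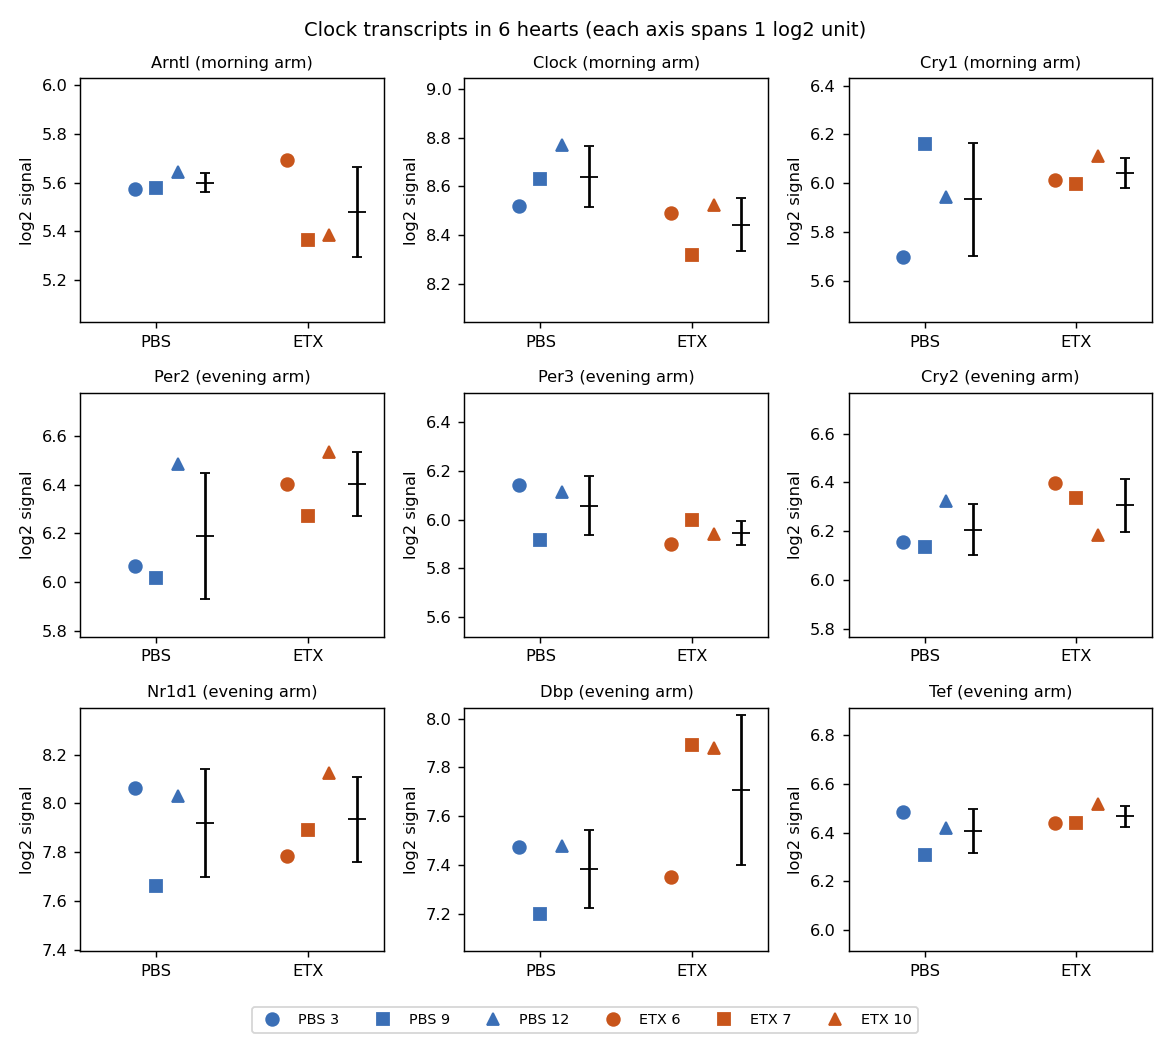
Log2 signal of the 9 measured clock genes in each heart (blue PBS, orange ETX; symbols mark the heart, black bars the mean ± SD of 3 hearts). Each panel spans 1 log2 unit on its own level, and the ETX and PBS symbols overlap in all 9 panels.

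Of the activators, Arntl encodes the obligate partner of CLOCK and is required for the rhythm. Its log2 signal was 5.58, 5.58 and 5.64 in PBS replicates 3, 9 and 12 and 5.69, 5.36 and 5.39 in ETX replicates 6, 7 and 10. ETX replicate 6 was the highest of all 6 hearts, and the other two ETX hearts were the lowest. The group means were 5.60 ± 0.04 and 5.48 ± 0.18 (SD, n = 3 per group), a log2 difference of -0.12 (95% interval -0.34 to 0.10, limma adjusted p = 0.519). It was -0.22 without ETX replicate 6, -0.06 without ETX replicate 7 and -0.07 without ETX replicate 10. Clock encodes the partner of ARNTL in the activator pair. It stood at 8.52, 8.63 and 8.77 in the PBS hearts and at 8.49, 8.32 and 8.52 in the ETX hearts. PBS replicate 3 lay just under ETX replicate 10, and this was the only crossing of the groups for Clock. Its difference of -0.20 (95% interval -0.40 to 0.01, limma adjusted p = 0.251) had the smallest adjusted p of the members. With 1 heart left out it ran from -0.13 without PBS replicate 12 to -0.26 without PBS replicate 3.

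Cry1 encodes the strongest repressor of the activator pair and peaks late in the night, after the other repressors. Its log2 signal was 5.70, 6.16 and 5.94 in PBS replicates 3, 9 and 12 and 6.01, 6.00 and 6.11 in ETX replicates 6, 7 and 10. The 3 ETX hearts lay close together, inside a PBS spread that held both the lowest and the highest heart. The difference was 0.11 (95% interval -0.15 to 0.37, limma adjusted p = 0.632), and -0.01 without PBS replicate 3. Cry1 thus ran opposite to Arntl and Clock in its mean, although it was placed in the same arm.

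Of the period genes, Per2 encodes a repressor that responds both to the clock and to external signals. It was at 6.07, 6.02 and 6.49 in the PBS hearts and at 6.40, 6.27 and 6.53 in the ETX hearts. PBS replicate 12 lay among the ETX hearts, and PBS replicates 3 and 9 lay below them all. The difference was 0.21 (95% interval -0.09 to 0.51, limma adjusted p = 0.388), and it ran from 0.13 without PBS replicate 9 to 0.36 without PBS replicate 12. PBS replicates 3 and 9 are also the hearts with lung transcripts. With both left out, Per2 differed by -0.08 (limma adjusted p = 0.77), and with the mean of the lung markers as a covariate by -0.04 (0.902). Cry2 (6.16, 6.14 and 6.33 in PBS, 6.40, 6.34 and 6.19 in ETX), the second cryptochrome, behaved alike in these fits, with 0.10 over all hearts (limma adjusted p = 0.536), -0.02 without both hearts and -0.0025 with the covariate. With 1 heart left out Cry2 ran from 0.06 without ETX replicate 6 to 0.16 without PBS replicate 12 or ETX replicate 10. The other members were fitted likewise, without PBS replicates 3 and 9 and then with the lung covariate. Clock differed by -0.32 and -0.28, Per3 by -0.17 and -0.20, and Arntl by -0.16 in both. Cry1 differed by 0.10 and 0.19, Dbp by 0.23 and 0.20, Tef by 0.05 and 0.02, and Nr1d1 by -0.10 and -0.15.

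Per3, the gene with the D-box pair shown above, encodes a period protein that is dispensable for the rhythm itself. Its log2 signal was 6.14, 5.92 and 6.11 in PBS replicates 3, 9 and 12 and 5.90, 6.00 and 5.94 in ETX replicates 6, 7 and 10. Its difference of -0.11 (95% interval -0.29 to 0.07, limma adjusted p = 0.459) was the single negative one of the evening arm, and it ran from -0.07 without PBS replicate 3 to -0.18 without PBS replicate 9. PBS replicate 9 lay within the ETX range, and the other two PBS hearts lay above it.

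Nr1d1 encodes a heme-binding nuclear receptor that represses Arntl. It stood at 8.06, 7.66 and 8.03 in the PBS hearts and at 7.79, 7.89 and 8.12 in the ETX hearts. The means were nearly equal, 7.92 ± 0.22 and 7.93 ± 0.17 (SD, n = 3 per group), with a difference of 0.02 (95% interval -0.28 to 0.31, limma adjusted p = 0.961) whose sign turned to -0.01 with arrays centred on their median. Both groups spread over more than this difference.

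Of the D-box factors, Dbp is a direct and strongly rhythmic target of the activator pair. Its log2 signal was 7.47, 7.20 and 7.48 in PBS replicates 3, 9 and 12 and 7.35, 7.89 and 7.88 in ETX replicates 6, 7 and 10. ETX replicates 7 and 10 lay above every PBS heart, and ETX replicate 6 lay between PBS replicates 9 and 3. The means, 7.38 ± 0.16 and 7.71 ± 0.31 (SD, n = 3 per group), gave the widest difference among the members, 0.32 (95% interval -0.03 to 0.67), or 1.25-fold, which did not pass (limma adjusted p = 0.265). Without ETX replicate 6 it was 0.50 (limma adjusted p = 0.0842), and with any one of the other hearts left out it ran from 0.23 to 0.37 (up to 0.535). Tef, a factor of the same PAR bZIP family with a shallower rhythm, was at 6.49, 6.31 and 6.42 in PBS and at 6.44, 6.44 and 6.52 in ETX. Its difference was 0.06 (95% interval -0.10 to 0.23, limma adjusted p = 0.665), and it ran from 0.01 without PBS replicate 9 to 0.10 without PBS replicate 3.

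**Figure D2:**
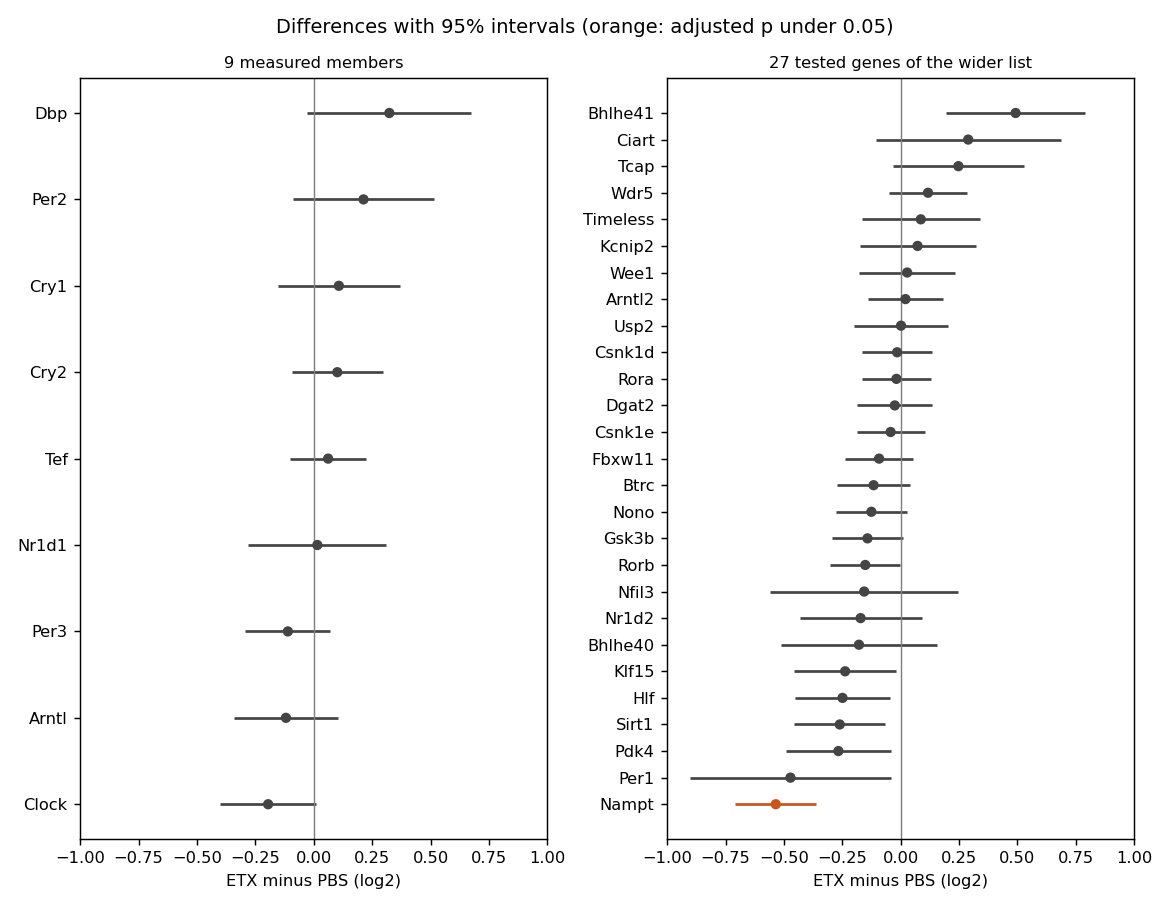
Difference between ETX and PBS means on the log2 scale (points) with limma 95% intervals (lines) for the 9 measured members, left, and the 27 tested genes of the wider clock list, right. The intervals of all members cross 0, from Clock at -0.20 to Dbp at 0.32, and Nampt alone passed an adjusted p of 0.05.

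To compare the arms, each gene was centred on its mean over the 6 hearts and the centred values of an arm were averaged in each heart. The morning arm averaged 0.03 ± 0.11 in PBS and -0.03 ± 0.09 in ETX (SD, n = 3 per group). The evening arm averaged -0.05 ± 0.14 in PBS and 0.05 ± 0.08 in ETX. Morning minus evening was -0.08, 0.30 and 0.03 in PBS replicates 3, 9 and 12 and 0.07, -0.19 and -0.14 in ETX replicates 6, 7 and 10. PBS replicate 9 stood highest and ETX replicate 7 lowest, and the groups overlapped, since PBS replicate 3 lay below ETX replicate 6. The group means differed by -0.17, as much as the pooled spread between hearts of a group (SD 0.17). With 1 heart left out this difference ran from -0.25 without PBS replicate 3 to -0.06 without PBS replicate 9. It was -0.11 with both of these hearts, which held lung transcripts, left out. With Cry1 in neither arm the difference was -0.26, and without Clock and Cry2 it was -0.11. The part of lung tissue in the index was not tested. No test was made of this index, since its genes were chosen with results of these data known.

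**Figure D3:**
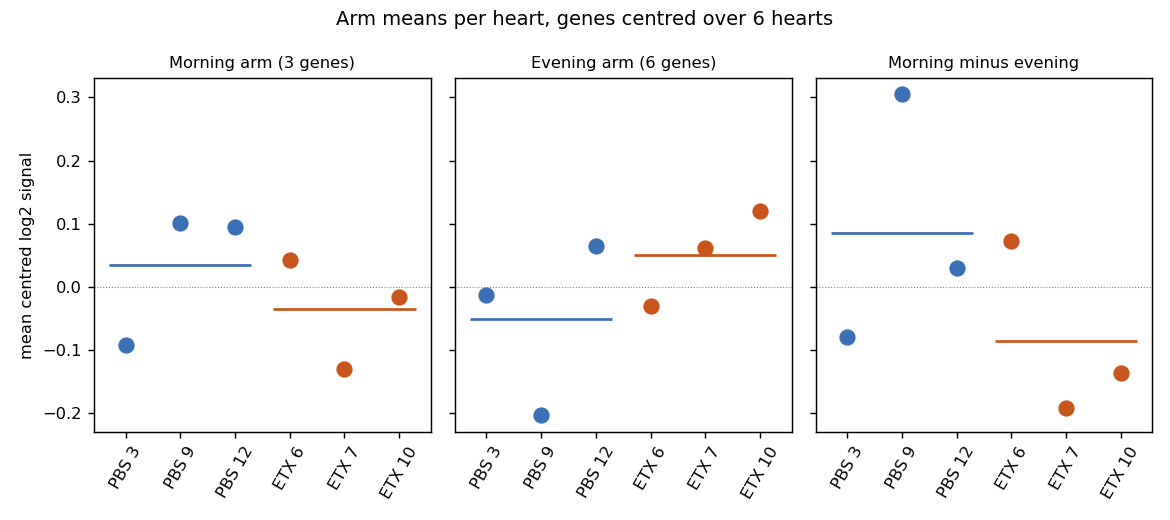
Mean centred log2 signal of the morning arm, the evening arm and their difference in each heart (points, blue PBS and orange ETX; horizontal lines, group means). The largest difference between arms is in PBS replicate 9, at 0.30, and ETX replicate 6, at 0.07, lies above 2 of the 3 PBS hearts.

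Hearts within a group differed from each other in these genes. PBS replicate 9 was the lowest PBS heart for 6 of the 6 evening members, and the lowest of all 6 hearts for 5 of them, Per3 being the exception. In Nr1d1 it lay 0.26 below its group mean, in Dbp 0.18 and in Per2 0.17. In the same heart Cry1 lay 0.23 above its group mean. PBS replicate 9 also had the highest mean of the lung markers, 7.56, and the part of lung tissue in these values was not tested. ETX replicate 6 combined the highest Arntl, 0.21 above its group mean, with the lowest Dbp of its group, 0.36 below it, and with Nr1d1 0.15 below it. Nfil3, which encodes a repressor at the D-box and is known to run opposite to Dbp, was also highest in these hearts within each group. It reached 6.18 in PBS replicate 9, with the other PBS hearts at 5.86 to 6.11, and 6.32 in ETX replicate 6, with the other ETX hearts at 5.62 to 5.75. The other genes did not all follow. In ETX, replicate 6 was the lowest heart for 3 of the 6 evening members, while Per2 and Tef were lowest in replicate 7 and Cry2 was highest in replicate 6. Clock was highest in PBS replicate 12 and ETX replicate 10, and Arntl was highest in PBS replicate 12 among the PBS hearts, with PBS replicate 9 at -0.02 from its group mean. In PBS replicate 9 the rhythmic genes Per1, Nr1d2 and Ciart lay 0.04, 0.03 and 0.06 above their group means, and Hlf was lowest in PBS replicate 3. These orders of hearts, and Nfil3 as an example, were picked after the values were seen and were not tested.

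**Figure D4:**
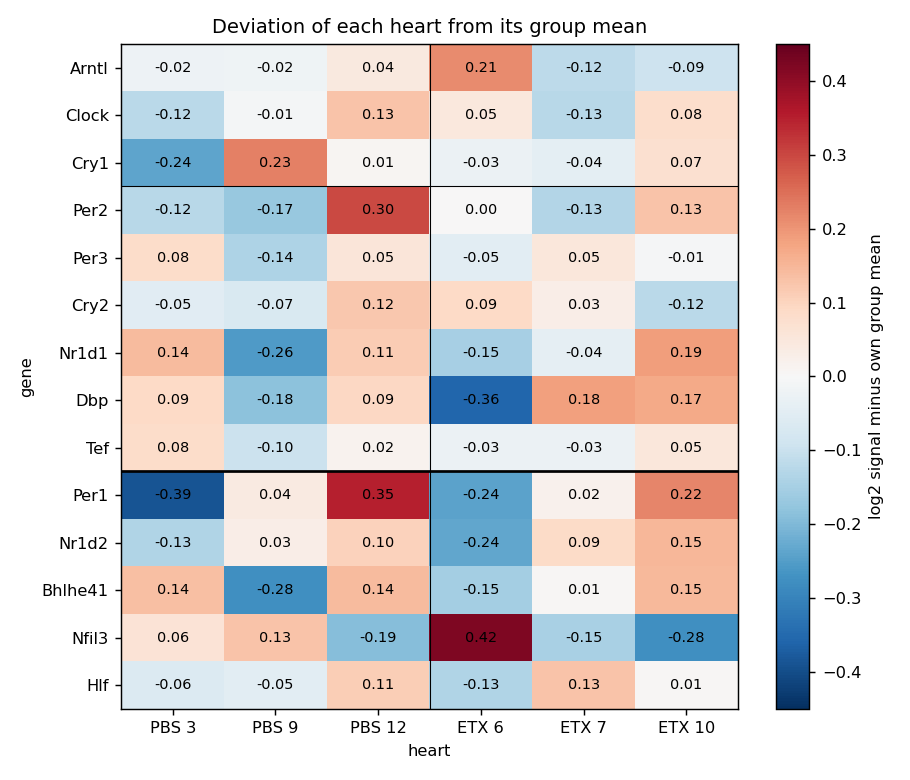
Log2 signal of each heart minus the mean of its own group for the 9 measured members (above the thick line; morning arm first) and 5 genes of the wider list. In PBS replicate 9 all 6 evening members are negative, and ETX replicate 6 holds the widest values for Dbp (-0.36) and Nfil3 (0.42).

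The pooled within-group SD of the members ran from 0.07 for Tef to 0.25 for Dbp, with a median of 0.13 against 0.10 for all tested genes. Dbp lay at percentile 95.5 of all tested genes in this spread, Per2 at 92.0 and Nr1d1 at 91.3, while Tef lay at 24.6. Xist, which is expressed from the inactive X of females, was at 8.34 to 8.41 in PBS replicate 3 and ETX replicates 6 and 10 and at 2.61 to 2.87 in the other hearts. With Xist as a covariate 0 of the 9 members passed.

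In the wider clock list, 28 genes were analysed and 27 of them tested, since Fbxl21 lay under the filter on dim genes. Of these, 1 fell and 0 rose, 3.7% against the 3.56% of all tested genes. The median difference of the list was -0.09, with 18 of 27 below 0, against -0.01 for all tested genes. The groups did not overlap for 9 of the 27, 1 higher and 8 lower in ETX, where 11.6% of all tested genes were higher and 16.1% lower without overlap. The gene that fell was Nampt, which encodes the rate-limiting enzyme of NAD salvage and is known as a direct output of the activator pair. It was at 8.08, 8.11 and 8.28 in the PBS hearts and at 7.67, 7.61 and 7.58 in the ETX hearts, so that every ETX heart lay below every PBS heart. The means of 3 hearts were 8.16 ± 0.11 and 7.62 ± 0.05 (SD), which made Nampt 1.45-fold lower in ETX (limma adjusted p = 0.0144). The call was lost without ETX replicate 7 (limma adjusted p = 0.0699) or ETX replicate 10 (0.0533), and just missed with Xist in the fit (0.0501). It was also lost without PBS replicates 3 and 9 (0.0761) and in the unmoderated model (0.097).

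Bhlhe41 (DEC2), a repressor of the activator pair's targets, was the largest positive difference of the list without passing. It was at 6.11, 5.70 and 6.12 in PBS and at 6.32, 6.48 and 6.62 in ETX, with no overlap and a difference of 0.49 (95% interval 0.20 to 0.79, limma adjusted p = 0.0775). It was 0.30 with the lung-marker mean as a covariate (limma adjusted p = 0.325) and 0.35 without PBS replicates 3 and 9 (0.252). Its relative Bhlhe40 (DEC1) differed by -0.18 with overlapping groups (limma adjusted p = 0.522). Hlf, the third PAR bZIP factor beside Dbp and Tef, was at 6.54, 6.55 and 6.71 in PBS and at 6.21, 6.48 and 6.35 in ETX, without overlap and with a difference of -0.25 (limma adjusted p = 0.152). Hlf and Dbp therefore had differences of opposite sign, neither of which passed. Sirt1, an NAD-dependent deacetylase that acts on clock proteins, differed by -0.26 (limma adjusted p = 0.129), also without overlap. The remaining genes with small p were Pdk4 at -0.27 (limma adjusted p = 0.16), the cardiac regulator Klf15 at -0.24 (0.196) and the nuclear receptor Rorb at -0.15 (0.224), which lay close to the dim end of the array.

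Per1, the period gene that is induced most quickly by glucocorticoids and by immediate early signalling, was at 7.26, 7.69 and 7.998 in PBS replicates 3, 9 and 12 and at 6.93, 7.20 and 7.40 in ETX replicates 6, 7 and 10. PBS replicate 3 lay within the ETX range. Its difference was -0.47 (95% interval -0.90 to -0.04, limma adjusted p = 0.193), opposite in sign to that of Per2, and it ran from -0.67 without PBS replicate 3 to -0.30 without PBS replicate 12. Of 11 glucocorticoid response genes 4 fell and 0 rose, among them Nfkbia (-0.81, limma adjusted p = 0.0251), Errfi1 (-0.60, 0.0277) and Tsc22d3 (-0.57, 0.0423), where 2.43% of all tested genes fell. Of the 11, 3 lay above 0, and Fkbp5, a standard glucocorticoid target, was higher in every ETX heart than in any PBS heart without passing (0.48, limma adjusted p = 0.0618). Of 11 immediate early genes 3 fell and 0 rose: Nr4a1 (-1.78, limma adjusted p = 0.0348), Nr4a3 (-0.84, 0.0464) and Jun (-0.47, 0.0496). Here too 3 of the 11 lay above 0. Junb was higher in every ETX heart than in any PBS heart without passing (0.18, limma adjusted p = 0.189). With 1 heart left out the calls numbered 0 (without ETX replicate 7) to 4 (without ETX replicate 10) in the first list. In the second they numbered 0 without PBS replicate 3, PBS replicate 9, ETX replicate 6 or ETX replicate 7, and 1 or 2 otherwise. The mean log2 level of the immediate early list was 6.11 to 6.20 in PBS, 5.57 and 5.55 in ETX replicates 6 and 7, and 6.04 in ETX replicate 10, which stood next to PBS. That of the glucocorticoid response list was 8.20, 8.41 and 8.33 in PBS replicates 3, 9 and 12 and 8.08, 7.80 and 8.20 in ETX replicates 6, 7 and 10. The part of these signals in Per1 was not tested.

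Kinases and ubiquitin ligase subunits set the stability of PER and CRY proteins. Csnk1d and Csnk1e, the casein kinases that phosphorylate PER, differed by -0.02 (95% interval -0.17 to 0.13) and -0.04 (-0.19 to 0.10). Btrc, Fbxw11 and Gsk3b had lower values in all 3 ETX hearts than in any PBS heart, as did 16.1% of all tested genes. Their differences of -0.12, -0.09 and -0.14 did not pass (limma adjusted p = 0.366, 0.441 and 0.259). Of the further clock outputs, Usp2 differed by 0.00, Wee1 by 0.03 and the potassium channel subunit Kcnip2 by 0.07, all with overlapping groups. Tcap, of the same list, differed by 0.25 (limma adjusted p = 0.287), also with overlap. Ciart, a repressor of the activator pair, was on 2 clusters that differed in level. The brighter gave 0.29 (limma adjusted p = 0.371).

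Profiles close to those of Arntl and Dbp were sought among all tested genes, by the root mean square difference of centred log2 values over the 6 hearts. Those nearest to Arntl were Naif1 (0.03), Tpgs1 (0.03), Lrp3 (0.04), Amigo1 (0.04) and Tns1 (0.04), against a root mean square of 0.12 for Arntl itself. Nearest to Dbp were Haus6 (0.06), Adamtsl2 (0.07), the mitotic kinase Cdk1 (0.07), Cenpp (0.08) and Ntsr2 (0.08), against 0.26 for Dbp itself. None of these 10 genes is another member or stands in the wider clock list.

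Every sample held heart tissue, the labelled source, since 8 cardiomyocyte markers averaged 12.3 to 12.4 on the log2 scale in each. These markers do not show that other tissue was absent. The 9 lung markers averaged 6.14 and 7.56 in PBS replicates 3 and 9, 3.64 in PBS replicate 12 and 3.75 to 3.81 in ETX, with 0 of 9 passing. The 8 atrial markers averaged 8.01 in PBS replicate 3, 7.46 and 7.51 in ETX replicates 6 and 7, and 5.91 to 6.24 in the remaining hearts. Not every atrial marker followed this mean. Bmp10 was at 7.71 in PBS replicate 3 and at 2.55 to 2.94 in every other heart. Nppa was also high in ETX replicate 10 (11.89), and Nr2f2 varied little (6.30 to 6.49). Of 9 macrophage markers 5 fell (2 to 4 with 1 heart left out). Of 7 endothelial markers 4 fell (3 or fewer with 1 heart left out, and 0 without PBS replicate 3). Over all tested genes 2.43% fell. The part of these cell types in the clock values was not tested. Nor was the part of lung tissue in the macrophage and endothelial markers. In whole tissue, fewer cells of a type and less RNA per cell cannot be told apart. Without PBS replicates 3 and 9, with the lung-marker mean as a covariate, or with the atrial-marker mean as a covariate, 0 of the 9 clock genes passed, while 19, 75 and 145 of all tested genes did.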

How the data were processed

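The deposited values are log2 signals that the authors made with Affymetrix Expression Console and RMA, per the submitters' processing notes; RMA normalizes quantiles between arrays and compresses differences of dim transcripts. The labels name no version of either, and the array's genome build is not named. A platform annotation named 21789 of 35556 transcript clusters with 1 gene symbol; the brightest cluster stood for a gene. Genes whose mean lay under the lower quartile (3.45) were left out. There is no detection call. Array medians lay between 4.43 and 4.51, and arrays correlated at 0.985 to 0.994 across clusters, which are not independent replicates; the number of arrays limits the precision.

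The 2 groups were compared in R 4.3.3 using limma 3.58.1 (lmFit and eBayes, two-sided, Benjamini-Hochberg adjustment over 14953 genes, threshold 0.05); the functions were tested on simulated data. Members, lists, tests and alternatives were chosen with earlier results of these data known. Named genes are all members and the wider-list genes past the threshold or among the 8 smallest p. The 5 profiles nearest to Arntl and to Dbp are also named, as are the 3 context genes of each list with the smallest p. Nfil3, Bhlhe40, Ciart, Nr1d2, Fkbp5, Junb, the kinases and ligase subunits, Usp2, Wee1, Kcnip2 and Tcap were named after their values were seen. Alternatives were other filters, eBayes options, array weights, an unmoderated model, normalizations, covariates and hearts left out; the atrial covariate was added after seeing the data. Promoter windows came from RefSeq (GRCm38.p6). Figures used matplotlib 3.10.9 in Python 3.11.15.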

Additional observations from a re-analysis of the deposited data

How the results depend on the processing

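The count of clock members called was 0 in all 19 alternatives, and the morning minus evening difference stayed below 0 in all 13 of its alternatives (-0.26 to -0.06). Median-centred arrays and the mean of clusters could not change this difference, which was -0.17 in both. Other filters, eBayes options, the unmoderated model, the threshold of 0.10 and the mean of clusters cannot change a member's difference. A sign could therefore turn only in the rest of the 19. The signs of Arntl, Clock, Per3, Dbp and Tef held in all of them. The signs of Cry1, Per2, Cry2 and Nr1d1 turned in some fits, none past the threshold. Cry1 turned without PBS replicate 3 (-0.011, within a range of -0.011 to 0.222 with 1 heart left out). Per2 turned with the lung covariate (-0.0365) or without both PBS hearts with lung transcripts (-0.083), and Cry2 in the same fits (-0.0025 and -0.019). Nr1d1 turned with array weights (-0.0034), the lung covariate (-0.147), Xist (-0.027) and median-centred arrays (-0.014), and without both lung hearts (-0.098). With 1 heart left out Nr1d1 turned without PBS replicate 9 (-0.113) or ETX replicate 10 (-0.080). Without any other single heart it stayed above 0 (up to 0.0892). The wider list had 2 calls with the 50% of dimmer genes left out, with trend and robust eBayes, or at a threshold of 0.10, and 0 with the unmoderated model, Xist, or without both lung hearts; with 1 heart left out it had 0 to 1. Bhlhe41 was the added call in each case of 2 calls; it did not pass in the other alternatives. Over all tested genes the calls numbered 909 with the 50% of dimmer genes left out, 957 with trend and robust eBayes, 1259 at a threshold of 0.10, 0 with the unmoderated model, 75 with the lung covariate, 126 with Xist, 145 with the atrial covariate, 19 without both lung hearts and 94 to 241 with 1 heart left out. Of the calls 68.1% were lower in ETX as deposited, 78.6% with median-centred arrays and 58.3% after a further quantile normalization. Without both lung hearts the single PBS heart is assumed to vary like the others. No paired analysis was possible because the groups share no replicate number.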
